A study of Homo sapiens with 6 samples.

Results

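The genes described here are the MYC, MAX and MXD network, taken as the rows of the count tables whose symbol is MYC, MYCN, MYCL, MAX, MXD1, MXD3, MXD4, MXI1, MNT or MGA. All 10 symbols were found among the 26485 genes of the tables. RNA was sequenced from the established human line AF22, which is made of neural stem cells, in 3 libraries labelled as a short hairpin control of wild-type genotype and 3 libraries labelled as a knockdown of BMI1 and COMMD3-BMI1. All libraries come from that line, no treatment or time is given in the labels, and nothing in them says whether the 3 libraries of a group were separate cultures, so the p-values speak only for the spread of these libraries, part or all of which may be technical. BMI1 is a subunit of the Polycomb repressive complex PRC1, and COMMD3-BMI1 is the read-through transcript of COMMD3 and BMI1.

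MYC, MYCN and MYCL are basic helix-loop-helix leucine zipper proteins that bind DNA at E-box sequences only as partners of MAX, and activate genes of growth and division. The MXD proteins, MXI1 (also called MXD2), MNT and MGA compete for MAX at the same sites and mostly repress, the MXD proteins, MXI1 and MNT by bringing in SIN3 and histone deacetylases. MYCN is the MYC gene best known from neural progenitors, BMI1 was first described as a partner of MYC in lymphoma, and MGA is a subunit of a PRC1 variant, PRC1.6, that holds PCGF6 in place of BMI1.

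Total counts per library ranged from 4962745 to 9640349. BMI1 stood at 85.1, 90.0 and 87.4 CPM (counts scaled to a common library size and composition) in control libraries 1, 2 and 3, and at 39.9, 21.5 and 26.2 CPM in knockdown libraries 1, 2 and 3; the mean of COMMD3 (CPM ± SD, n = 3) was 26.3 ± 2.06 without and 32.5 ± 0.873 with the knockdown, and COMMD3-BMI1 was listed at 0 in all 6, so the knockdown of the read-through could not be checked. Knockdown library 2 lay apart: its score on principal component 1, which held 49.2% of the variance, was 40.2, and the scores of the other 5 libraries ranged from -25.5 to 11.5. Of 13 neural stem cell markers, SOX2 and NES were well expressed (control means 344.6 and 1032.5 CPM). SOX1 (25.8) and PAX6 (14.7) were lower, and HES5 was at 0 counts throughout. The summed CPM of the 13 ranged from 3793.7 to 4038.9 in control and 3162.7 to 4304.3 in knockdown libraries. VIM was the largest part of that sum, with a control mean of 1899.4 CPM. Of the 12 tested, 10 had a value below 0 (median log2 fold change -0.22), beside 50.4% of all genes tested. PLAGL1 fell in the fit that pairs libraries by number (edgeR adjusted p 0.0380), where 5.39% of all genes were lower. The summed CPM of 10 mesenchymal and neural crest markers ranged from 1496.4 to 1856.4 in control and 1863.5 to 2631.0 in knockdown libraries. COL3A1 was the largest part of it (control mean 1057.2 CPM), and the groups overlapped for each of the 10 taken singly. The sum of 8 astrocyte markers ranged from 565.3 to 623.7 in control and 637.6 to 691.1 in knockdown libraries. That of 8 oligodendrocyte markers ranged from 203.8 to 234.3 and 185.0 to 203.7, and that of 10 neuron markers from 1079.7 to 1235.0 and 883.8 to 1135.7. In the paired fit GJA1 and SPARCL1 rose of 5 tested astrocyte markers, and COL3A1 and POSTN of 10 mesenchymal and crest markers. ELAVL3 and NEFM fell of 6 tested neuron markers, and no oligodendrocyte marker passed. Of all genes, 4.63% were higher and 5.39% lower. GFAP was listed with counts in 1 library only, and SOX10, ELAVL4 and RBFOX3 were at 0. The part of these markers in the results on network genes was not tested, and in bulk RNA fewer cells of a type and less RNA per cell cannot be told apart.

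In the control cells the network was led by a MYC gene and a repressor at the same level. Per kilobase of merged exons, MXD4 stood at 38.5 ± 2.84 CPM per kb and MYCN at 37.9 ± 2.21 (mean ± SD, n = 3), and the ranges of these neighbours overlapped. MAX, the shared partner, followed at 11.6 ± 0.164, MYC at 10.5 ± 0.436 and MNT at 9.85 ± 0.266 CPM per kb. MGA (8.13 ± 0.798), MXD3 (7.66 ± 1.13) and MXI1 (7.65 ± 0.582) could not be ordered, since the ranges of neighbours overlapped. MYCL was at 4.10 ± 0.677 and MXD1 lowest, at 2.66 ± 0.111 CPM per kb. With the longest annotated coding transcript as the length, MXD4 and MYCN again came first and MYCL and MXD1 last, but MXD3 was at 11.1 ± 1.64, and its range overlapped that of MNT. In the knockdown libraries MXD4 was at 52.2 ± 12.1 and MYCN at 34.9 ± 4.02 CPM per kb, and MXD4 exceeded MYCN in all 3 of them, as it did in control libraries 2 and 3.

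The comparison asked how the RNA of these MYC and MAX partners changed when BMI1 was lowered. MXD3 fell, and MXD4 and MNT rose, in the paired fit, which compares libraries of the same number. The unpaired edgeR quasi-likelihood test called 0 of the 10 members, as it called 0% of the 12937 genes tested. At an unadjusted p under 0.05 it gave 4 members (MXD3, MNT, MXI1 and MXD4), beside 14.4% of all genes. Unpaired limma voom called no member and unpaired DESeq2 called 1, MXD3, beside 1.10% of all genes. The paired fit called 3 of the 10, beside 10% of all genes tested (4.63% higher and 5.39% lower). Paired limma voom called the same 3 genes (10.7% of all genes) and paired DESeq2 called 2, MXD3 and MXD4 (4.56% of all genes). The CPM of the 2 groups did not overlap for 5 members, MXD3 lower and MAX, MXD4, MXI1 and MNT higher in knockdown, where this held for 20.5% of all genes (9.28% higher and 11.2% lower). For 6 members the log2 difference had 1 sign within all 3 numbers, as it had for 52.3% of all genes. All 10 members passed the filter on low counts, and their median log2 fold change was -0.04, where that of all genes tested was 0.00.

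**Figure D1:**
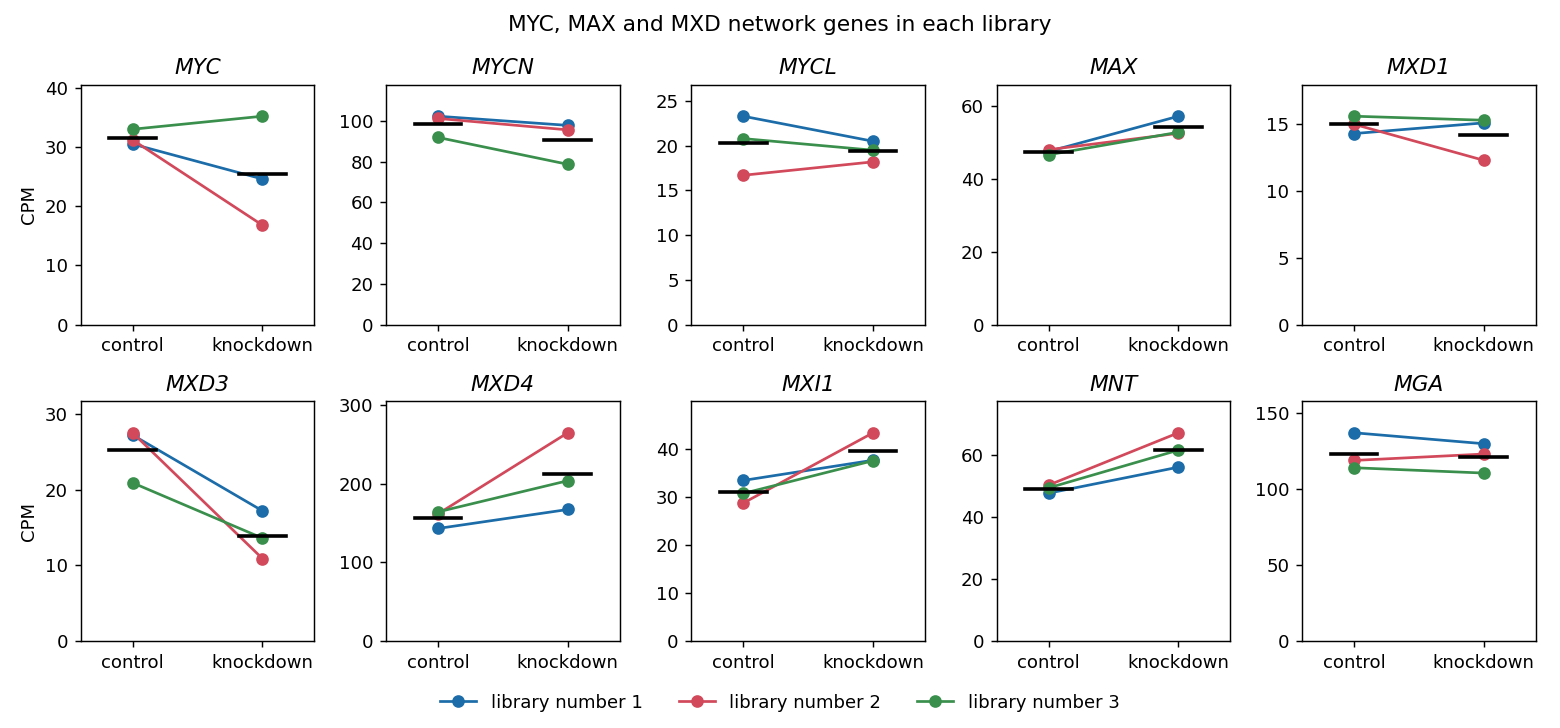
CPM of the 10 network genes (vertical axis, each panel with its own scale from 0) in the control and knockdown libraries; lines join libraries with the same number and black bars are group means. All 3 knockdown values lie below all control values for MXD3, and above them for MAX, MXD4, MXI1 and MNT.

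Of the 3 MYC genes none passed. MYC, the founding member, stood at 30.5, 31.2 and 33.0 CPM in control libraries 1, 2 and 3 and at 24.6, 16.8 and 35.2 CPM in the knockdown libraries. The control values lay close together, and those of the knockdown spread on both sides of them, with library 2 lowest and library 3 highest of all 6. Its log2 fold change was -0.30 (SE 0.236; edgeR adjusted p 0.588), and -0.33 (SE 0.169; adjusted p 0.234) in the paired fit. The value rested on single libraries: the paired log2 fold change was -0.05 (adjusted p 0.807) without the libraries numbered 2 and -0.61 (adjusted p 0.0344) without those numbered 3.

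MYCN, the MYC gene of neural progenitors and neuroblastoma, was at 102.3, 101.2 and 91.9 CPM in the controls and 97.8, 95.6 and 78.7 CPM in knockdown libraries. Library 3 was the lowest of each group, and the groups overlapped. The log2 fold change was -0.12 (SE 0.105; edgeR adjusted p 0.617), and -0.13 in the paired fit (adjusted p 0.262). MYCL, first found amplified in lung cancer, was at 23.3, 16.7 and 20.8 CPM in the controls and 20.5, 18.2 and 19.5 CPM in knockdown libraries, all knockdown values lying within the control range. MYCNOS, the antisense neighbour of MYCN, had at most 9 counts in a library and was not tested; MYCNUT was at 0. PVT1, the long non-coding RNA beside MYC, was at 21.6 ± 1.55 CPM in the controls and 23.4 ± 3.96 CPM in knockdown libraries (n = 3 each).

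MAX, the partner that the members share, lay at 47.6, 48.1 and 46.7 CPM in the controls and 57.3, 52.6 and 52.9 CPM in knockdown libraries. The groups did not overlap, but the difference was small: the log2 fold change was 0.19 (SE 0.0873; edgeR adjusted p 0.366), and 0.19 with an adjusted p of 0.159 in the paired fit. MAX shares 108 exon bases with an antisense gene that was not analysed here.

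Of the MXD genes, MXD3 passed as lower and MXD4 as higher, both in the paired fit. MXD3 differs from the other MXD genes in being known from dividing progenitors rather than from cells that leave the cycle. It stood at 27.2, 27.5 and 20.9 CPM in control libraries and at 17.2, 10.9 and 13.6 CPM in knockdown libraries. Every knockdown library was below every control library, and library 2 was lowest. The mean fell to 0.552 of the control level, a log2 fold change of -0.87 (SE 0.194) with an edgeR adjusted p of 0.258, and of -0.87 (SE 0.158) with an adjusted p of 0.0256 in the paired fit. The log2 differences within numbers 1, 2 and 3 were -0.66, -1.31 and -0.61. The call was kept by every paired alternative run, at adjusted p from 8.54e-05 to 0.0250. The lowest came without the libraries numbered 2, a fit with fewer libraries that called more genes, and is no stronger evidence. MXD3 shares 731 exon bases with PRELID1 on the opposite strand, and the strand setting of the counting is not given in the sources used here. PRELID1 was at 130.2 ± 8.83 CPM in the controls and 128.5 ± 17.9 CPM in knockdown libraries, with a log2 fold change of -0.02.

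Genes of the division cycle were lower in the same libraries. Of 36 genes of the G1/S, S and G2/M lists, 34 fell and none rose in the paired fit (5.39% of all genes were lower). Their median log2 differences were -0.25, -1.04 and -0.52 within numbers 1, 2 and 3. The median and MXD3 were both furthest below 0 at number 2, whose knockdown library lay apart. The median was further below 0 at number 3 than at number 1, and MXD3 was not (-0.66 at number 1, -0.61 at number 3). E2F1, which drives entry into S phase, went from 90.3 ± 8.28 to 53.6 ± 18.9 CPM (n = 3 each; paired edgeR adjusted p 0.0256). The part of the dividing cells in the fall of MXD3 was not tested.

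**Figure D2:**
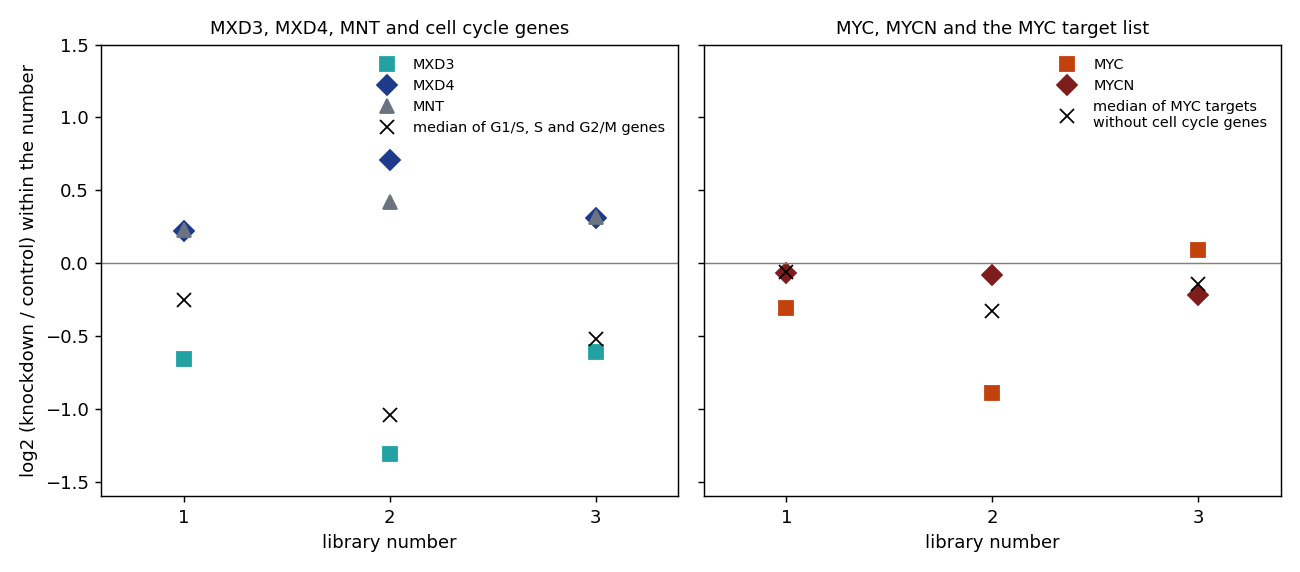
Log2 difference between the knockdown and the control library of the same number (vertical axis) for network genes and for list medians, by library number. Left, MXD3 and the cell cycle median are lowest at number 2 (-1.31 and -1.04), where MXD4 is highest (0.71). Right, MYC and the median of the MYC targets are also lowest at number 2 (-0.89 and -0.33). That median leaves out only the targets that the cell cycle lists also hold.

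MXD4, a repressor found in differentiating cells, stood at 143.0, 161.5 and 164.0 CPM in the controls and 167.1, 264.4 and 203.6 CPM in knockdown libraries. Knockdown library 1 was barely above the highest control, and library 2 was far above it. The mean was 1.36-fold higher, with a log2 fold change of 0.44 (SE 0.158; edgeR adjusted p 0.288), and 0.42 (SE 0.0940; adjusted p 0.0327) in the paired fit. Without the libraries numbered 2 the paired value was 0.27 (adjusted p 3.63e-05), and without knockdown library 2 the unpaired value was 0.25 (adjusted p 0.435). The paired fit without number 2 had fewer libraries yet called 2296 genes, beside 1296 with all libraries. Its smaller adjusted p is therefore no stronger evidence for MXD4.

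MXI1, which gives several isoforms from separate first exons, was at 33.4, 28.7 and 30.7 CPM in the controls and 37.6, 43.3 and 37.5 CPM in knockdown libraries. The groups did not overlap and library 2 was the highest. The log2 fold change was 0.35 (SE 0.113; edgeR adjusted p 0.267), and 0.35 (SE 0.106; adjusted p 0.0654) in the paired fit, just outside the threshold of 0.05. With no filter on low counts, where the paired fit called 2171 genes beside 1296 with the filter, the edgeR adjusted p of MXI1 was 0.0283. No other paired alternative called it. The adjusted p was 0.0629 with paired limma voom and 0.296 with paired DESeq2. In paired edgeR it was 0.101 without the libraries numbered 2 and 0.155 without those numbered 3. MXD1, the founding MXD gene, was at 14.3, 15.0 and 15.6 CPM in the controls and 15.1, 12.3 and 15.3 CPM in knockdown libraries. The groups overlapped, and the log2 fold change was -0.08 (SE 0.153; edgeR adjusted p 0.852).

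MNT, the repressor most widely expressed across tissues and a constant counterweight to MYC, was at 47.8, 50.4 and 49.5 CPM in the controls and 56.2, 67.3 and 61.7 CPM in knockdown libraries. The control libraries differed little, and each knockdown library lay above all of them. The log2 fold change was 0.33 (SE 0.0967; edgeR adjusted p 0.258), and 0.33 (SE 0.0796; adjusted p 0.0398) in the paired fit, with differences of 0.23, 0.42 and 0.32 within the numbers. The paired call was lost without the libraries numbered 1 (adjusted p 0.0527), without those numbered 3 (0.179) and with DESeq2 (0.212). MNT shares 1065 exon bases with an antisense gene that was not analysed here. Other genes on the opposite strand, not analysed either, share exon bases with MGA (510), MYCL (226) and MXI1 (205).

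MGA, the largest member, joins a T-box to the MAX-binding domain. It was at 137.1, 118.9 and 114.1 CPM in the controls and 129.9, 123.1 and 110.6 CPM in knockdown libraries. The values overlapped throughout, the log2 fold change was -0.03 (SE 0.103; edgeR adjusted p 0.928), and number 1 was the highest of both groups. Of 14 partners of MGA in PRC1.6, 1 passed in the paired fit, which is no more than the 10% of all genes. It was TFDP1, the dimer partner of E2F factors, which fell from 135.8 ± 6.39 to 106.4 ± 17.8 CPM (n = 3 each; log2 fold change -0.37, SE 0.0938, adjusted p 0.0443). PCGF6, the subunit particular to this complex, had a log2 fold change of -0.37 (adjusted p 0.0944), with differences of -0.03, -0.51 and -0.51 within the numbers. TFDP2 (0.16) and RNF2 (0.13) did not pass, and the median of the 14 was -0.02.

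**Figure D3:**
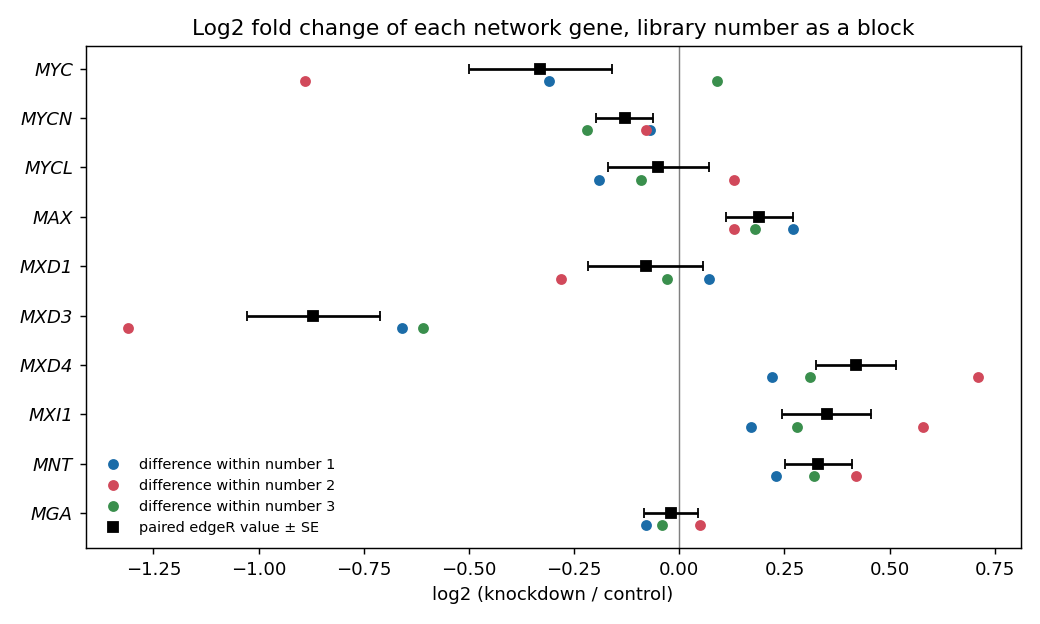
Log2 fold change of knockdown over control (horizontal axis) for the 10 network genes: black squares with bars are the paired edgeR value ± SE, and coloured points the differences between libraries of the same number. MXD3 lies at -0.87, MXD4, MXI1 and MNT lie between 0.33 and 0.42, and the 3 points of MYC spread from -0.89 to 0.09.

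Promoter sequence was read for the members from RefSeq (GRCh38.p14), which gave 14 windows of 300 bases for 9 members, from 250 bases before to 50 bases after a start site. The 250 bases upstream are printed for the 3 genes that passed in the paired fit and for MYCN, the most abundant MYC transcript. Capitals mark CACGTG, the E-box bound by MYC, MXD and MNT dimers with MAX; TTGGCGC, which with TTCCCGC was searched as a form of the E2F site; and TTTGAA, the cell cycle homology region (CHR). Both strands were searched, so a match on the reverse strand is printed as its complement, as TTCAAA in MYCN.
MXD3 (chr5:177312753-177313002, minus strand): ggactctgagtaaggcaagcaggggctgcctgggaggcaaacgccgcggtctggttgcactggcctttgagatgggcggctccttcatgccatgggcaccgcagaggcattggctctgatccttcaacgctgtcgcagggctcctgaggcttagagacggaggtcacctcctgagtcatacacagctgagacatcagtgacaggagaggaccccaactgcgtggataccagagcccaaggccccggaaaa
MXD4 (chr4:2262110-2262359, minus strand): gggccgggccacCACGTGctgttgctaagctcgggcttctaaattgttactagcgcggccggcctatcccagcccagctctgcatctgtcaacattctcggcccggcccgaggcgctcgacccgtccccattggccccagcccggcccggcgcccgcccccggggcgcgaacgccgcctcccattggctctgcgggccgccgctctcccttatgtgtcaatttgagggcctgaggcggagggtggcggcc
MNT (chr17:2401061-2401310, minus strand): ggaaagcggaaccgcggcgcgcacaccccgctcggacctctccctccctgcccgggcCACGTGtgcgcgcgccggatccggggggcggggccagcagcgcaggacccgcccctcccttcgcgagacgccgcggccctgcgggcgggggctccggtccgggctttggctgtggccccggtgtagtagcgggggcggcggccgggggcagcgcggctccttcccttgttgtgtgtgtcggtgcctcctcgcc
MYCN (chr2:15940300-15940549, plus strand): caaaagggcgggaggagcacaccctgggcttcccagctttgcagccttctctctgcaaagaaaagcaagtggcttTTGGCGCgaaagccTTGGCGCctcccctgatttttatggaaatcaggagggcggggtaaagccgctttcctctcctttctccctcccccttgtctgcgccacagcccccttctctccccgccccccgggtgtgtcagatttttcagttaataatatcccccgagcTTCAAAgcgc
The E-box letters were in 2 of the 14 windows, those of MXD4 (bases -238 to -233 from the start site) and MNT (-193 to -188), both called higher with the number as a block. The 5 windows of MAX and MXI1, which were also higher in every knockdown library than in every control, did not hold them. The same letters were in 9.06% of the 14421 windows of tested genes and in 7.26% of all windows. The E2F forms were in 2 windows, with 2 matches in MYCN (-175 to -169 and -161 to -155) and 1 in a window of MGA, beside 13.5% of the windows of tested genes. TTTGAA was in windows of the same 2 genes, beside 10.7% of the windows of tested genes. None of these letters was in the window of MXD3, the member that fell, which says nothing of the factors that bind there. The match of MXD4 and MNT was noticed after their values were known and is a description.

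MXD3 lies on chromosome 5 at 177301461 to 177312757 (minus strand), MXD4 on chromosome 4 at 2247432 to 2262294 (minus strand) and MNT on chromosome 17 at 2384060 to 2401118 (minus strand), in GENCODE 29 on GRCh38. MXI1 lies on chromosome 10 at 110207605 to 110287365 and MYCN on chromosome 2 at 15940564 to 15947007, both on the plus strand. Counts were made per gene, so these values do not separate transcripts with different first exons.

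Summed by role, the RNA of the repressors was higher, nearly all of it through MXD4, and that of the MYC genes lower in knockdown libraries. MYC, MYCN and MYCL together came to 54.2, 52.7 and 50.5 CPM per kb in control and 49.9, 46.0 and 45.9 CPM per kb in knockdown libraries. The sum of MXD1, MXD3, MXD4, MXI1 and MNT was 63.9, 68.0 and 67.1 CPM per kb in control and 69.6, 94.8 and 78.7 CPM per kb in knockdown libraries. The ratio of the repressor sum to the MYC sum was 1.18, 1.29 and 1.33 in control libraries and 1.39, 2.06 and 1.71 in knockdown libraries. The groups did not overlap in either sum or in the ratio, and knockdown library 1 lay nearest to the controls. Nearly all of the net repressor difference was in MXD4, whose mean went from 38.5 to 52.2 CPM per kb. MNT (9.85 to 12.4) and MXI1 (7.65 to 9.74) rose less, MXD3 fell (7.66 to 4.23) and MXD1 hardly changed (2.66 to 2.53). MGA was left out of the repressor sum. With the longest coding transcripts as lengths the ratio was 1.24 ± 0.0669 in control and 1.65 ± 0.318 in knockdown libraries (mean ± SD, n = 3). These sums are descriptions of RNA with no test, and the genes in them were chosen with their changes known.

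**Figure D4:**
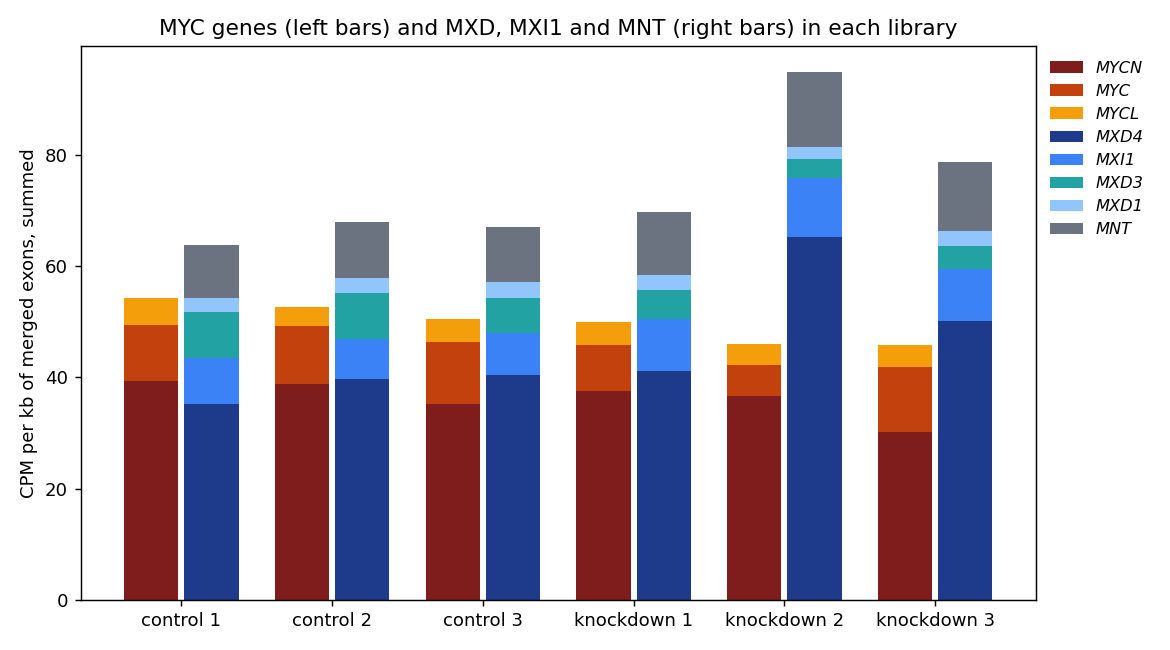
Summed CPM per kb of merged exons (vertical axis, from 0) in each library, MYC genes in the left bar and MXD genes, MXI1 and MNT in the right bar, with a colour for each gene. The right bar is higher in every library, 63.9 to 68.0 in control and 69.6 to 94.8 in knockdown, and the dark blue MXD4 segment is its largest part.

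Within the MXD and MXI1 sum, MXD3 gave 15.2, 14.4 and 11.1% in control and 8.93, 4.09 and 6.24% in knockdown libraries. Within the MYC sum, MYCN gave 72.6, 73.8 and 69.9% in control and 75.3, 79.8 and 65.9% in knockdown libraries. The first share was lower in each knockdown library than in each control, and the second lay on both sides of the controls.

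In the MLX branch, whose factors MLXIP (MondoA) and MLXIPL (ChREBP) sense glucose through MLX, 4 of 5 genes were tested and 1 rose in the paired fit, beside 4.63% of all genes. This was TXNIP, the best known MondoA target and a brake on glucose uptake, at 24.4, 24.6 and 30.0 CPM in the controls and 31.0, 78.4 and 45.3 CPM in knockdown libraries (paired log2 fold change 0.92, SE 0.213, edgeR adjusted p 0.0356). Its relative ARRDC4 was at 0.73 (adjusted p 0.144), and the factors themselves at -0.09 (MLX) and -0.02 (MLXIP), while MLXIPL had too few counts to be tested.

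None of 15 genes of the SIN3 corepressor, through which MXD proteins act, passed in the paired fit (median log2 fold change 0.06), with SAP30 at -0.27 (edgeR adjusted p 0.108) and SIN3A at 0.15 (0.172). None of 23 MYC cofactors passed (median -0.03), with RUVBL1 at -0.29 (adjusted p 0.0710) and RUVBL2 at -0.22. None of 12 tested regulators of MYC genes and their RNA passed (median -0.03), with IGF2BP1, which stabilises MYC RNA, at -0.18 (adjusted p 0.142). In all 3 lists the median was close to the 0.00 of all genes. The paired fit called 10% of all genes tested. At an unadjusted p under 0.05, the unpaired edgeR test gave 1, 1 and 0 genes in these lists, beside 14.4% of all genes tested.

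Of 25 genes that set the stability of MYC protein, 5 fell and 1 rose in the paired fit (median -0.07), beside 5.39% of all genes lower and 4.63% higher. CDK2, which phosphorylates MYC, fell from 101.9 ± 8.65 to 59.9 ± 18.4 CPM (n = 3 each; log2 fold change -0.81, SE 0.122, edgeR adjusted p 0.0222). PLK1 (-0.66), the SUMO protease gene SENP1 (-0.38), the ubiquitin ligase gene SKP2 (-0.30) and AURKA (-0.45) fell too, and PLK1 and AURKA are also in the G2/M list. FBXW7, the ligase that marks MYC for degradation, rose, at 53.1, 63.5 and 58.6 CPM in the controls and 66.6, 104.2 and 67.4 CPM in knockdown libraries (paired log2 fold change 0.42, adjusted p 0.0407). FBXW7 and AURKA were named after their values were seen.

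Genes described as MYC targets, many of them factors of ribosome assembly, lay mostly a little below 0, and most did not pass one by one. Of 65 tested, 9 fell and none rose in the paired fit, beside 5.39% of all genes lower and 4.63% higher. In the unpaired fit 57 had a value below 0, as had 50.4% of all genes, and the median log2 fold change was -0.17. Without the 3 genes that the cell cycle lists also hold, 6 of 62 fell, beside the same 5.39% of all genes, and 54 had a value below 0, with a median of -0.16. Of those that fell, MCM4 (-0.59) serves DNA replication, PLK1 mitosis and PLK4 (-0.64) cell division, and HK2 (-0.54) and LDHA (-0.38) serve glycolysis. Of the textbook targets, ODC1 was at -0.14 (edgeR paired adjusted p 0.209), CAD at -0.14 (0.212) and the nucleolin gene NCL at -0.10 (0.452), none of which passed. Without the 3 genes that the cell cycle lists hold, the target medians within numbers 1, 2 and 3 were -0.06, -0.33 and -0.14. PLK4 remained among these targets. The differences were -0.31, -0.89 and 0.09 for MYC and -0.07, -0.08 and -0.22 for MYCN. At number 3 MYC was not lower while the target median was, and knockdown library 2 held the largest differences of both. Without that library the unpaired median of the targets was -0.10.

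CDKN2A, the INK4A and ARF locus through which BMI1 and MYC are classically linked, was at 4.59, 5.26 and 3.17 CPM in the controls and 3.72, 7.97 and 7.33 CPM in knockdown libraries, with overlapping groups and a paired edgeR adjusted p of 0.181. Its neighbour CDKN2B, which encodes INK4B, rose in the paired fit, at 2.76, 4.33 and 7.79 CPM in the controls and 4.55, 7.70 and 13.5 CPM in knockdown libraries (log2 fold change 0.79, SE 0.178, edgeR adjusted p 0.0330). The groups of CDKN2B overlapped too, and its differences within numbers 1, 2 and 3 were 0.67, 0.79 and 0.77.

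For each member the gene with the most similar profile over the 6 libraries was looked up among 11446 genes with a mean of at least 5 CPM. MXD4 was closest to MMP16 (Pearson r 0.998 of log2 CPM), MNT to UBR1 (0.998) and MXI1 to POLR3A (0.998). MXD3 was closest to CA5B (0.994), MAX to C1orf27 (0.994), MYCN to PDZRN3 (0.995) and MYC to RGS9 (0.993). The points of each pair share libraries and scaling, and each match is the highest of 11446.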

How the data were processed

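Total RNA of AF22 cells was made into directional libraries, per the labels' protocols. The authors deposited raw read counts per gene symbol, since all values are whole and totals differ. The submitters' processing notes name Trim Galore 0.6.6, STAR 2.7.10a, bedtools and hg38. For the counting program, its annotation and its strand setting, nothing is given in the sources used here.

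Counts were filtered with filterByExpr (12937 genes), scaled with TMM and tested with edgeR 4.0.16 (R 4.3.3) quasi-likelihood tests, with group as the term, at a Benjamini-Hochberg adjusted p of 0.05 over all genes tested. The SE is the log2 fold change over the root of F. Log2 CPM used a prior count of 2, also for differences within numbers. Both groups carry the numbers 1 to 3. Deviations from the group means correlated across genes by 0.563, 0.467 and 0.535 within numbers, all above 0.1, so the numbers were taken as pairs. This pairing comes from the data, and the paired fit adds the number as a block. The pipeline was tested on simulated counts.

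Members, lists and tests were chosen with earlier results of these data known. Named genes were all members, BMI1, COMMD3 and CDKN2A, and up to 4 genes per list by paired p (1 such result is not reported here), and the gene most like each member; ODC1, CAD, NCL, FBXW7, AURKA, LDHA, PRELID1, PVT1, MYCNOS, MYCNUT and MLXIPL, beyond that rule, were chosen after their values were seen, as were the marker genes named by their counts. Of the list symbols, CIP2A was found under an older symbol and MYCL-AS1 was not found. Lengths and loci came from GENCODE 29. Alternatives were RLE, total count scaling, other filters, DESeq2 1.42.0, limma 3.58.1 voom and leaving out libraries.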

Additional observations from a re-analysis of the deposited data

How the results depend on the processing

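In the unpaired fit the count of genes called was 0, and it was 2 with no filter on low counts, 142 with DESeq2 and 1296 with the library number as a block (the pairing). The count of members called was 0, and 1 with DESeq2 and 3 with the library number as a block. Leaving out a library gave 0 to 665 genes and 0 to 2 members, the upper values without knockdown library 1, when MXD3 (-1.02) and MXD4 (0.59) passed. In the paired fit, 2171 genes were called with no filter and 590 with DESeq2, and leaving out a pair of libraries gave 912 to 2296 genes (the most without number 2) and 2 to 3 members. The cause was not tested. MXD3 kept its direction in all 22 alternatives (log2 fold changes from -1.02 to -0.64), as did MXD4 (0.25 to 0.59), MXI1 (0.24 to 0.44), MNT (0.27 to 0.39), MAX (0.16 to 0.21), MYCN (-0.17 to -0.03) and MYC (-0.63 to -0.05). The values of 3 members close to 0 changed sign when libraries were left out: unpaired, MYCL ranged from -0.19 to 0.05, MXD1 from -0.14 to 0.02 and MGA from -0.08 to 0.06, and paired, MYCL from -0.13 to 0.01, MXD1 from -0.14 to 0.01 and MGA from -0.06 to 0.01. Leaving out a library moved the median of the MYC targets from -0.17 to between -0.23 and -0.10 and that of the cell cycle genes from -0.58 to between -0.84 and -0.36, both nearest to 0 without knockdown library 2.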
